A study of Mus musculus and Homo sapiens with 22 samples.

Results

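The cytosolic ribosomal protein genes were taken as all protein-coding genes whose symbol starts with Rpl or Rps followed by a digit, or with Rpsa, leaving out the Rps6k kinases and pseudogene symbols. This rule found 83 of 21853 protein-coding genes in the mouse annotation (GENCODE M21, mm10) and 89 of 19689 in the human annotation (GENCODE 44, hg38), and 81 symbols occurred in both. In each species 74 of the members were core ribosomal proteins, and the others were paralogues such as Rpl3l and Rps27l, read-through transcripts, and Rps19bp1, which encodes a binding partner of RPS19 and not a subunit of the ribosome. The P-stalk proteins Rplp0, Rplp1 and Rplp2, the fusion gene Fau and Rack1 fall outside the symbol rule and are given separately.

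Occupancy of PROX1, a homeobox transcription factor of hepatocytes, was profiled with CUT&RUN, an assay that tethers a nuclease to antibody-bound chromatin and sequences the fragments it releases. Untreated livers of wild-type C57BL/6J mice aged 2 to 3 months gave 5 samples with an antibody against PROX1, so that the endogenous factor was read. Wild-type C57BL/6N mouse embryonic fibroblasts (MEFs) from E13.5 embryos carried rtTA and a doxycycline-driven FLAG-tagged mouse Prox1, and gave 3 samples with a FLAG antibody after 2 days of doxycycline at 2 μg/ml. Hep3B, an established human hepatocellular carcinoma line, was made to express human PROX1 from a lentivirus whose label names no tag, selected with puromycin as a stable line, and gave 3 FLAG samples after the same induction. Rabbit IgG was used in 5, 3 and 3 further samples. Each peak list pooled the antibody samples of 1 group, so no value per sample, depth or spread between replicates can be given, and no test was made. Tissue, antibody and overexpression changed together between liver and the cultures, and species and cell type between MEFs and Hep3B, and these cannot be told apart. The labelled material was looked at on 10 hepatocyte genes, of which all 10 had a promoter peak in liver, 2 in MEFs and 0 in Hep3B. Of 10 fibroblast genes, 2 had a promoter peak in liver, 9 in MEFs and 4 in Hep3B, and of 6 blood and endothelial genes 0, 1 and 0. Over all protein-coding genes the shares were 26.7%, 55.4% and 44.4%. Such counts read occupancy and not expression or cell identity.

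Ribosomal proteins build the small (40S) and large (60S) subunits together with ribosomal RNA, and their genes are transcribed at high and coordinated levels in growing cells. Transcription of most of them starts at a C followed by a run of pyrimidines, the TOP sequence, through which translation of the mRNAs follows mTOR signalling. Their promoters are GC rich and usually lack a clear TATA box, and ETS-type and other general activator sites are common in them.

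The TOP start was annotated more often at the members than at all genes, and it is shown for members at which the results below turn. Each window holds 40 bases before an annotated start and 10 bases from it, on the coding strand and 5′ to 3′, with the pyrimidine run from the first transcribed base in capitals. The mouse windows are on mm10 and the human windows on hg38, at chr17:56613376-56613425 (+) for Rpl36, chr2:180257337-180257386 (+) for Rps21, chr15:5116605-5116654 (+) for Rpl37, chr19:39435940-39435989 (−) for RPS16 and chr19:41860215-41860264 (+) for RPS19.
Rpl36: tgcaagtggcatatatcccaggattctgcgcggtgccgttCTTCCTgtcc
Rps21: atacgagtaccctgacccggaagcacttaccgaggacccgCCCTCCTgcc
Rpl37: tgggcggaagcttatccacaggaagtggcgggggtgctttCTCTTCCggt
RPS16: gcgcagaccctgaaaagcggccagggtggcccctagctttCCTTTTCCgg
RPS19: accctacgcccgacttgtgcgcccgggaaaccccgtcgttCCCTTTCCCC
A start with C and at least 4 further pyrimidines was annotated for 69 of 89 human members (77.5%), against 10.7% of all human protein-coding genes. In mouse, where fewer annotated starts fall on this base, it was annotated for 23 of 83 members (27.7%), against 5.13% of all genes. The share was 28.6% (8 of 28) at members with a liver promoter peak and 27.3% (15 of 55) at those without. In MEFs it was 28.6% (22 of 77) and 16.7% (1 of 6), and in Hep3B 79.7% (51 of 64) and 72.0% (18 of 25).

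Promoter peaks, meaning a summit within 1000 bp of the start of a protein-coding transcript, were found at nearly all ribosomal protein genes in MEFs, at most in Hep3B and at a minority in liver. In MEFs, 77 of 83 members had one (92.8%, 95% Wilson interval 85.1 to 96.6), against 55.4% of all protein-coding genes. In Hep3B, 64 of 89 members had one (71.9%, interval 61.8 to 80.2), against 44.4% of all genes. In liver, 28 of 83 members had one (33.7%, interval 24.5 to 44.4), against 26.7% of all genes, a share that lies within the interval of the members. The intervals cover counting error over genes alone, and genes of 1 list are not replicates. Over the core proteins the counts were 72 of 74 in MEFs, 55 of 74 in Hep3B and 26 of 74 in liver. The lists differ in size, and this order is that of the full lists. When each list was held to its 14369 strongest peaks, 49 of 83 members kept a promoter peak in MEFs (against 34.0% of all genes) and 5 in liver (against 4.99%). Hep3B, whose list has this size, kept 64 of 89 (71.9%, against 44.4%). The share in Hep3B was then above that in MEFs. When an area of at least 500 was required in every list, 32 of 89 kept one in Hep3B (against 27.2%). At this floor, where the liver list starts, liver kept 28 of 83 (against 26.7%) and MEFs 64 of 83 (against 45.2%). The Hep3B members with a promoter peak were then a minority, as in liver.

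**Figure D1:**
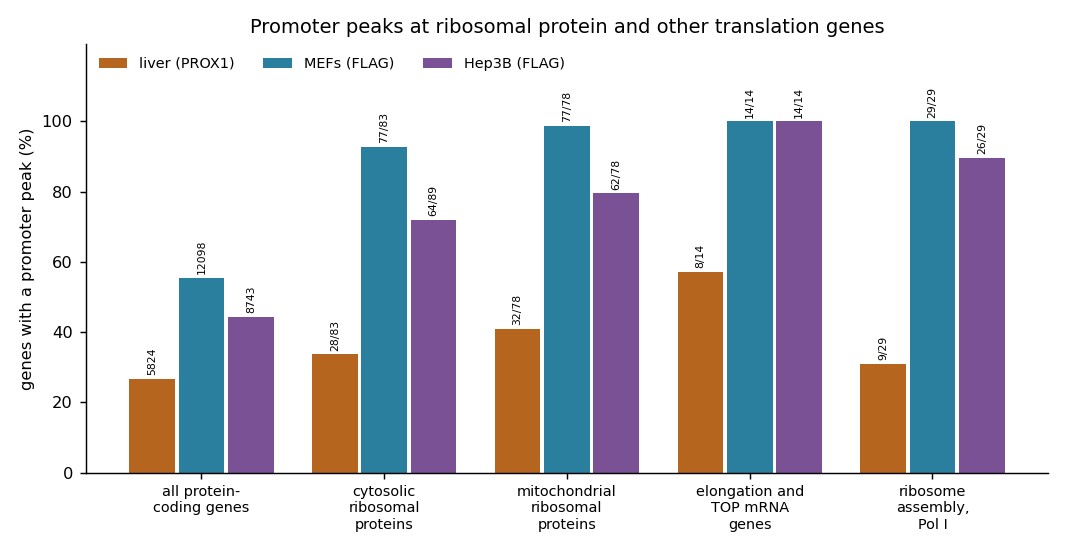
Percent of genes with a promoter peak in each list, for all protein-coding genes, the cytosolic ribosomal protein genes and 3 other translation gene lists, with counts above the bars (for all genes, the number with a peak). The MEF bar is the highest in each group, or equal to Hep3B at 14 of 14 for the elongation and TOP mRNA genes, and the liver bar of the ribosomal proteins, 28 of 83, stands close to that of all genes.

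Among small subunit members, 9 of 34 (26.5%) had a promoter peak in liver, 31 of 34 (91.2%) in MEFs and 26 of 37 (70.3%) in Hep3B. Among large subunit members, the counts were 19 of 49 (38.8%), 46 of 49 (93.9%) and 38 of 52 (73.1%). Over all protein-coding genes the shares were 26.7%, 55.4% and 44.4%, and the small subunit share in liver stood close to the first of these. The gap between the subunits was widest in liver, where 8 of 31 core small subunit genes and 18 of 43 core large subunit genes had one. It rests on few genes and was not tested. All 43 core large subunit genes had a promoter peak in MEFs, whereas 29 of the 31 core small subunit genes did.

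Of the ribosomal proteins named above as outside the symbol rule, Rplp0, Rplp1 and Rack1 had a promoter peak in liver, with summit −log10 p of 11.5, 12.2 and 9.28. In MEFs Rplp0, Rplp1, Rplp2, Fau and Rack1 had one, and in Hep3B RPLP0, RPLP1, RPLP2 and RACK1 did. Of 78 mitochondrial ribosomal proteins, which work in the separate ribosome of that organelle, 32 (41.0%) had a promoter peak in liver, 77 (98.7%) in MEFs and 62 (79.5%) in Hep3B. Of 14 elongation factors and other TOP mRNA genes, 8, 14 and 14 did, and of 29 genes of ribosome assembly and RNA polymerase I, 9, 29 and 26 did. Beside the last 3 lists, the share of the cytosolic members lay within their range in liver and below all of them in MEFs and Hep3B.

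The strength of a peak is given as the −log10 p of its summit and as its percentile among all peaks of its own list, since values are not normalized between lists. In liver, the 28 peaks had a median percentile of 21.2 (interquartile range 10.4 to 40.1), against 37.0 for all genes with a promoter peak. Their −log10 p ran from 6.15 to 18.1 with a median of 9.85, against 11.1 for all such genes. In MEFs, the 77 peaks had a median percentile of 76.0 (54.4 to 86.6), against 74.7, and in Hep3B the 64 members had 62.1 (37.6 to 79.5), against 63.8. The 95% interval of the members' median was 10.8 to 37.9 in liver, 66.2 to 80.1 in MEFs and 51.5 to 73.9 in Hep3B, and held the median of all such genes in each list. Ranked among promoter peaks alone, the medians were 36.7 in liver, 59.3 in MEFs and 52.9 in Hep3B.

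In the strongest 25% of the liver list lay 4 of 28 members (14.3%, interval 5.70 to 31.5), against 16.3% of all genes with a promoter peak. In the weakest 25% lay 15 of 28 (53.6%), against 37.0%. No interval was computed for the shares in the weakest 25%, and the liver share rests on 28 peaks. In MEFs, 41 of 77 (53.2%, interval 42.2 to 64.0) lay in the strongest 25%, against 49.7%, and 6 (7.79%) in the weakest, against 10.2%. Ranked among promoter peaks alone, the MEF share in the strongest 25% was 22.1%. In Hep3B, 22 of 64 (34.4%, interval 23.9 to 46.6) lay in the strongest 25%, against 36.8%, and 5 (7.81%) in the weakest, against 16.2%. The first of these Hep3B shares was 23.4% among promoter peaks alone and 21.9% by area. The liver peaks of the members were also narrower, with a median width of 441.5 bp against 558.5 bp for all such genes, and had a smaller area under the significance curve, 828 against 1346. The differences in MEFs were 966 against 1056 bp and 879 against 1005, and in Hep3B 650 against 742 bp and 498 against 608.

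**Figure D2:**
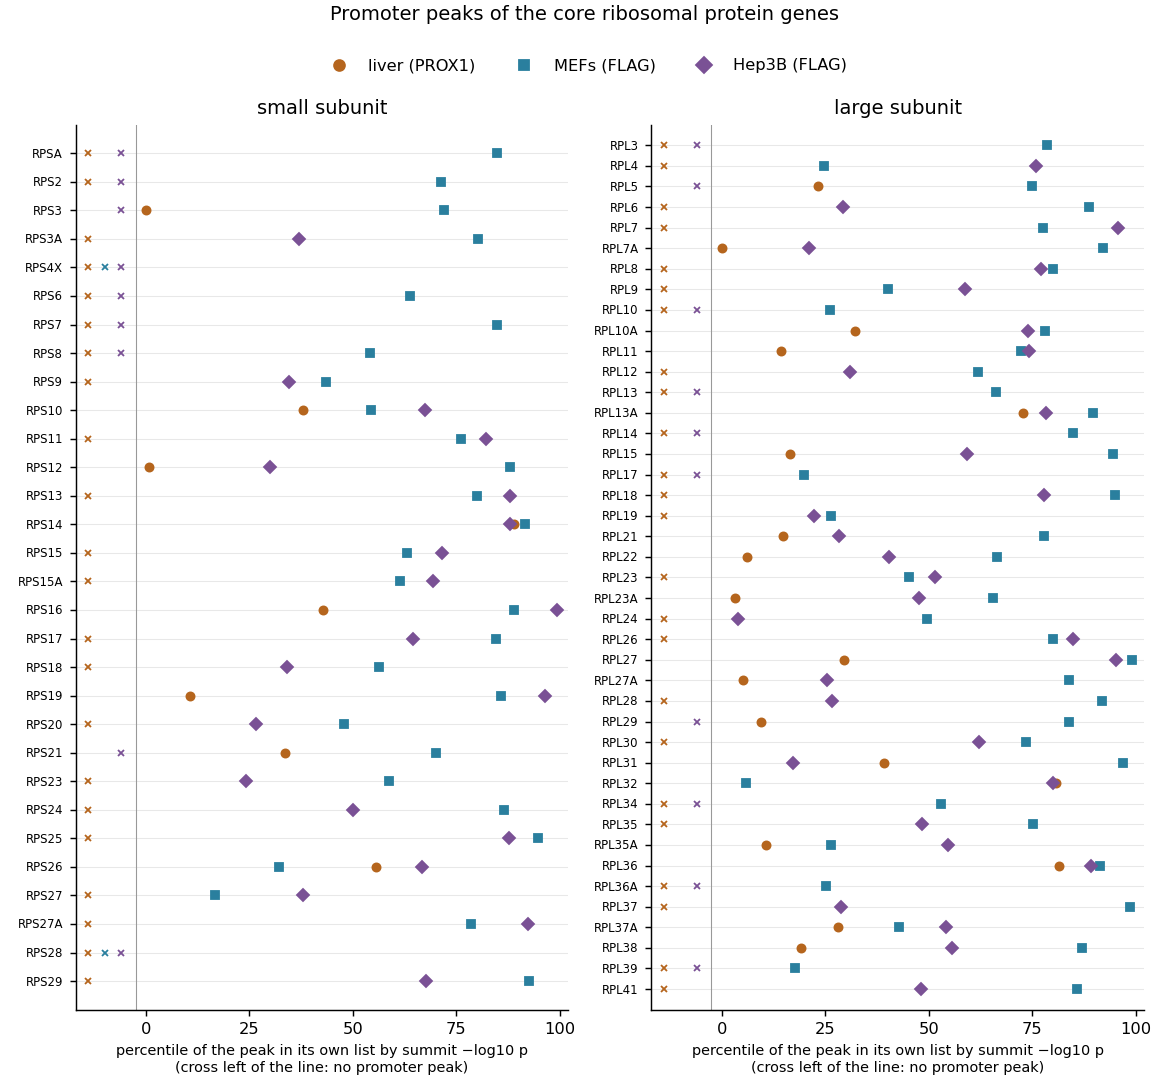
Percentile of the strongest promoter peak of core ribosomal protein genes within its own list, with 1 row per gene for those named here, small subunit left and large subunit right, and a cross left of the line where the list had no promoter peak. Most liver points lie below 50 and most MEF points above it, and RPS14 and RPL36 stand above 80 in all 3 lists. The RPS14 points of liver and MEFs belong to peaks at different starts.

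In liver the strongest member peaks were at Rpl7l1, a paralogue of Rpl7, with −log10 p of 18.1 (percentile 90.0, chr17:46782558-46783478), and at Rps14, a small subunit protein whose loss underlies the anaemia of the 5q deletion syndrome, with 17.8 (percentile 88.9). Next were Rpl36 with 16.2 (chr17:56612113-56612984), Rpl32 with 16.0 (chr6:115808665-115809188), both of the large subunit, and Rpl13a, which can leave the ribosome for the GAIT translational silencing complex, with 14.8 (chr7:45129471-45129889). The Rpl7l1, Rpl36, Rpl32 and Rpl13a summits lay 454, 628, 332 and 965 bp upstream of the nearest start. The Rps14 summit lay 133 bp upstream of a start next to Ndst1, with 3 of the 8 annotated Rps14 starts within 1000 bp of it, and the nearest of the remaining starts was 27631 bp away. The median distance from the start was 454 bp for the 5 strongest liver members and 97 bp for the other 23. Over all genes with a liver promoter peak, the median distance was 300 bp for the 947 in the strongest 25% and 178 bp for the other 4877. The 5 strongest members were farther out in the cultures too, with medians of 149 bp in MEFs and 138 bp in Hep3B, against 60.5 and 108 bp for the others. Over all genes with a promoter peak, the medians in the strongest 25% and the rest were 88 and 107 bp in MEFs. In Hep3B they were 103 and 90 bp.

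At the other end, Rps3, which lines the mRNA entry channel, had the lowest liver −log10 p, 6.15 (percentile 0.00598), followed by Rpl7a with 6.76 (0.150) and Rps12 with 7.19 (0.602). These were among the weakest peaks of the whole liver list. In MEFs the same genes ranked at 72.0, 92.1 and 87.9.

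Genes known from disease or stress signalling were looked at singly. Rps19, the gene most often mutated in Diamond-Blackfan anaemia, ranked at 10.7 in liver, 85.7 in MEFs and 96.4 in Hep3B, and Rps26, another gene of that disease, at 55.5, 32.2 and 66.8. Rpl5 and Rpl11, which hold MDM2 in check together with 5S RNA when ribosome assembly is disturbed, ranked at 23.2 and 14.2 in liver and at 75.1 and 72.4 in MEFs. In Hep3B, RPL11 ranked at 74.3 and RPL5 had no promoter peak, its nearest summit being 46730 bp away. Rpl22, a large subunit protein needed in T cell development, ranked at 6.08, 66.5 and 40.4, and its paralogue Rpl22l1 had no promoter peak in liver, ranked at 55.4 in MEFs and at 90.7 in Hep3B. Of these genes, Rps26 ranked higher in liver than in MEFs, and the others with a liver promoter peak ranked lower there.

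Among the 5 strongest member peaks in MEFs were those at Rpl27 with −log10 p of 10.1 (percentile 99.2, chr11:101441896-101442861), Rpl37 with 9.85 (chr15:5115911-5117064), Rpl31 with 9.23 (chr1:39367432-39368418) and Rpl18 with 8.79 (chr7:45714857-45715549). These 4 belong to the large subunit. The weakest were Rps27 with 4.78, Rpl36al with 4.76 and Rpl32 with 4.31. Among the 5 strongest in Hep3B were those at RPS16 with 9.51 (percentile 99.3, chr19:39435609-39436249) and RPS19 with 8.79 (chr19:41859296-41860202), both of the small subunit, and at RPL7 and RPL27 with 8.73 and 8.69. The weakest were RPL7A with 5.53, RPL31 with 5.41 and RPL24 with 4.79. RPL27 was the member among the 5 strongest of both cultures, and Rpl31 stood near opposite ends of these lists.

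Few members lacked a promoter peak in MEFs. These were Rps28 and Rps4x, both core proteins of the small subunit, with nearest summits 6650 and 32356 bp away, and 4 paralogues or retrogenes, Rpl3l of striated muscle (3298 bp), Rps27rt (3732 bp), Rpl39l (22672 bp) and the testis gene Rpl10l (317183 bp). In Hep3B 25 members lacked one, among them RPS6, the substrate of the S6 kinases, RPSA, which doubles as a laminin receptor, RPL3, which reaches toward the peptidyl transferase centre, and RPS3. In liver, Rps27l and Rps18 were the nearest misses, with summits 1132 and 1435 bp from a start, and Rpl13a was just inside at 965 bp. The 55 liver members without a promoter peak had their nearest summit at a median of 11085 bp, and 31 of them beyond 10 kb, so that few lay just outside the window.

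All 28 members with a liver promoter peak also had one in MEFs, 100% of the liver members and 36.4% of the 77 MEF members. Of all mouse genes with a liver promoter peak, 83.6% had one in MEFs, and of all 83 members 92.8% had one there. The genes with a promoter peak in both mouse lists were 4870 of the 12098 with one in MEFs. Of the 28 liver members, 24 also had one in Hep3B (85.7% of these and 40.0% of the 60 Hep3B members with a symbol in both species, against 70.2% and 46.8% over all symbols). MEFs and Hep3B shared 59 members, 77.6% of 76 and 98.3% of 60, against 66.2% and 93.5%. Over the 81 symbols of both species, 24 (29.6%) carried promoter peaks in each of the 3 lists, compared with 21.9% of 15736 symbols. The count was 12 with an area of at least 500 in every list, against 14.0% of all symbols, and 4 with equal list sizes, against 2.13%. A peak in MEFs and Hep3B without liver was found at 35 (43.2%, against 23.8%), in MEFs alone at 13 (16.0%, against 17.0%), and in no list at 4 (4.94%, against 24.4%). RPL39L, a paralogue expressed in testis and some tumours, had a promoter peak in Hep3B alone. Its summit, at chr3:187139707, lay in an intron, 211 bp upstream of an internal start. The outermost start of this gene is at 187180908. None had one in liver alone or in liver and Hep3B alone, against 3.46% and 0.928% of all symbols.

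The 24 members with a promoter peak in every list were RPL10A, RPL11, RPL13A, RPL15, RPL21, RPL22, RPL23A, RPL27, RPL27A, RPL31, RPL32, RPL35A, RPL36, RPL37A, RPL38, RPL7A and RPL7L1 of the large subunit or its paralogues, and RPS10, RPS12, RPS14, RPS16, RPS19, RPS26 and the binding partner RPS19BP1. Ranked by their lowest percentile, RPS14 came first with 88.9 in liver, 91.6 in MEFs and 87.9 in Hep3B. Its liver and MEF values belong to different peaks at different starts, with summits 27447 bp apart. RPL36 followed with 81.5, 91.5 and 89.2, and RPL7L1 with 90.0, 80.0 and 76.2. RPL13A gave 72.8, 89.8 and 78.4 and RPS16 gave 42.8, 89.0 and 99.3. Thus 4 members ranked above 70 in each list, and the same count was not made over all symbols. At RPL36 the Hep3B summit lay nearer to a start of HSD11B1L (87 bp) than to one of RPL36 (260 bp). The Rpl13a summit in liver lay 965 bp from a start, near the edge of the window. RPL38, whose loss in mice alters the patterning of the axial skeleton, was more typical, with 19.1, 87.1 and 55.7. Rpl29, Rpl5, Rps21 and Rps3 had promoter peaks in both mouse lists and none in Hep3B.

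**Figure D3:**
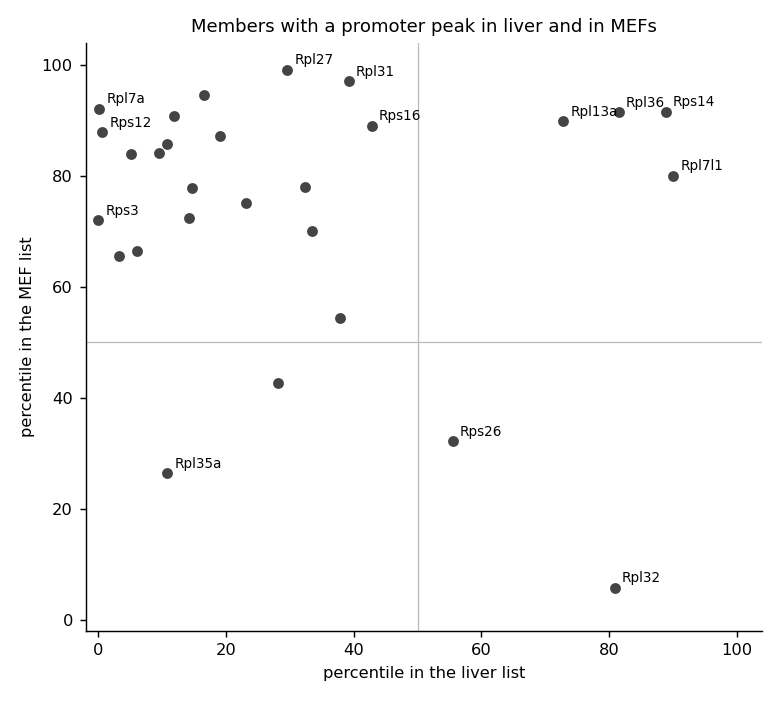
Percentile in the liver list (horizontal) against percentile in the MEF list (vertical) for the 28 members with a promoter peak in both, 1 point per gene, with lines at the middle of each scale. Most points lie at upper left, low in liver and high in MEFs, and Rpl32 lies at lower right with 80.8 in liver and 5.74 in MEFs.

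The order of the members was not shared between the lists. Across the 28 genes of both mouse lists, Pearson's r of the percentiles was −0.13 and Spearman's rho 0.07, and across the 59 members of MEFs and Hep3B they were 0.19 and 0.18. These are descriptions across genes, which are not independent replicates. Members with a liver promoter peak had a median MEF percentile of 82.0, and the 49 with a MEF peak alone of the mouse lists had 71.2. This contrast was not computed over all genes, so it cannot be called particular to the members. Of the 28, Rpl7l1, Rpl32 and Rps26, a small subunit protein near the mRNA exit, ranked higher in liver than in MEFs, with 90.0, 80.8 and 55.5 in liver and 80.0, 5.74 and 32.2 in MEFs.

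The positions of the summits were close to the starts, and mostly upstream. In liver the median position was −118.5 bp (interquartile range −228 to −44.5, negative upstream), against −72 bp for all genes with a promoter peak. In MEFs it was −54 bp (−112 to −4), against −49 bp. In Hep3B the members had a median of −108.5 bp (−188.75 to −55), against −70 bp. The summit was upstream of the start at 22 of 28 members in liver (78.6%, against 64.7% of all such genes), 58 of 77 in MEFs (75.3%, against 68.3%) and 58 of 64 in Hep3B (90.6%, against 77.5%). Within 200 bp of a start lay 64.3%, 93.5% and 73.4% of the members, against 50.7%, 73.7% and 76.7%. The share within 200 bp was therefore larger for the members than for all such genes in liver and in MEFs, and not in Hep3B. By annotation, 21 liver summits lay outside the gene, 5 in an untranslated part of an exon and 2 in an intron. In MEFs, 42 lay outside the gene, 25 in an untranslated part of an exon, 9 in an intron and 1 in coding sequence, at Rpl39, and in Hep3B the counts were 42, 9, 13 and 0.

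**Figure D4:**
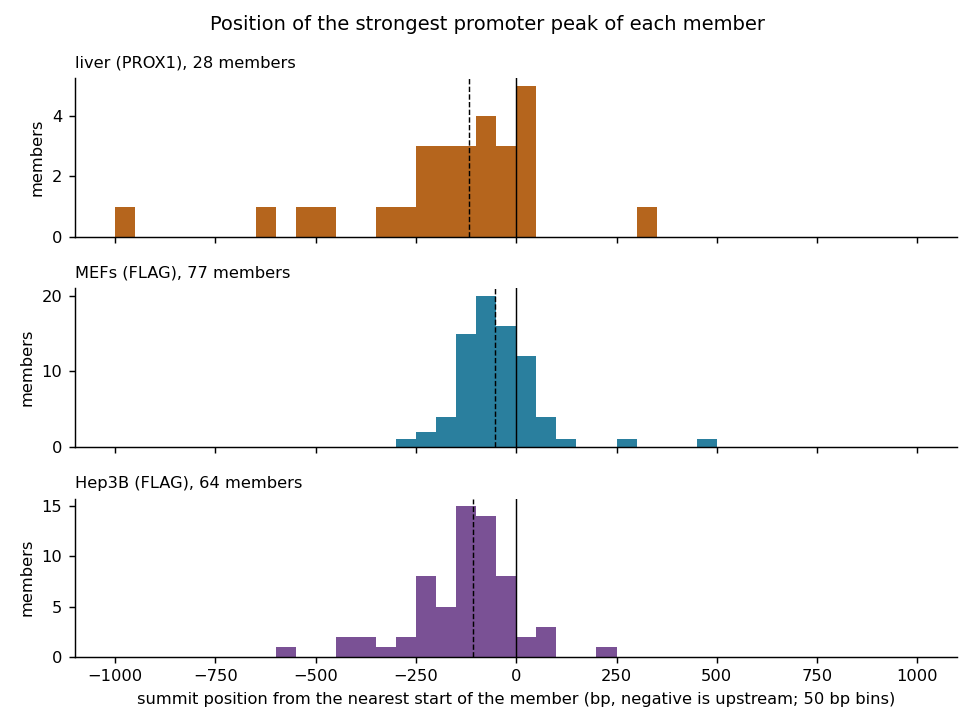
Position of the strongest promoter peak of each member from its nearest start, in bins of 50 bp, for 28 members in liver, 77 in MEFs and 64 in Hep3B, with a solid line at the start and a dashed line at the median. The MEF summits gather within 200 bp of the start around −54 bp, while the liver summits reach 965 bp upstream.

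At the 28 members with a peak in both mouse lists, the strongest liver and MEF peaks overlapped in 26 (92.9%), against 79.6% of the 4870 genes with a promoter peak in both. The summits were a median of 123.5 bp apart (interquartile range 40.5 to 430.5), against 268 bp, and lay within 100 bp of each other at 13 members, against 26.3% of these genes. With each summit measured from its own nearest start, the liver summit was the farther upstream at 20 of 28. This was not counted over all genes. The liver peaks were narrower, with a median of 441.5 bp against 976.5 bp. The lists differ in this over all genes with a promoter peak, with medians of 558.5 bp in liver and 1056 bp in MEFs. The strongest peaks did not overlap at Rps10, with summits 1483 bp apart at different starts, and at Rps14, with summits 27447 bp apart. At Rps14 a weaker MEF peak overlapped the liver peak, with a summit 185 bp away.

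Some member promoters also serve another gene. Another gene's start was nearer to the summit at 2 members in liver, Rpl15 (Nkiras1) and Rpl7a (Med22). The same was seen at 7 members in MEFs and at 10 in Hep3B, such as RPS16 (SUPT5H), RPL18 (SPHK2) and RPL12 (LRSAM1). When a peak counted for the gene with the nearest start alone, and a weaker promoter peak of a member could stand in, 26, 71 and 55 members kept a peak, against 24.8%, 50.8% and 38.8% of all genes. This setting was chosen after the data were seen. For such peaks the gene served cannot be told apart.

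The 4 core ribosomal proteins encoded on the X chromosome, Rpl10, Rpl36a, Rpl39 and Rps4x, ranked low or had no promoter peak. This group was set apart after its values were seen. None of the 4 had a promoter peak in liver or Hep3B, where 26 and 55 of the 70 autosomal core genes had one. Of all X-linked protein-coding genes, 10.3% had a promoter peak in liver, 21.5% in MEFs and 13.2% in Hep3B. In MEFs, Rpl10, which completes the 60S subunit late in its assembly, ranked at 26.3, Rpl36a at 25.3 and Rpl39, a small protein of the exit tunnel, at 17.7, all in the lower part of the list, and 69 of the 70 autosomal core genes had a promoter peak. Copy number and sex were not examined.

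Ribosomal protein pseudogenes are numerous and close in sequence to the parent genes, and the authors kept reads with a mapping quality of at least 30. A summit within 1000 bp of the start was found at 10 of 283 mouse ribosomal protein pseudogenes in liver (3.53%) and 6 of 283 in MEFs (2.12%), against 2.44% and 1.84% of all annotated pseudogenes. In Hep3B it was found at 10 of 1508 (0.663%), against 1.31%. The shares thus lay slightly above that of all pseudogenes in the mouse lists, on 10 and 6 copies, and below it in Hep3B. Of these copies, 8, 5 and 4 had no start of a protein-coding gene near the summit.

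Sequence motifs were counted on both strands within 50 bp of the summit. The following 61 base windows, centred on the summit and written 5′ to 3′ on the strand of the gene, show the matches in capitals. Rpl36 in liver holds the reverse complement of AGGTCA, Rpl18 in MEFs holds CCAAT and GGGCGG, and RPS16 in Hep3B holds the reverse complement of GGGCGG at 2 places. At Rpl15, whose liver and MEF summits coincided, CCGGAAG and the reverse complement of GGGCGG are marked. The windows lie at chr17:56612758-56612818 (+) for Rpl36, chr7:45715260-45715320 (+) for Rpl18 and chr14:18271088-18271148 (−) for Rpl15 on mm10, and at chr19:39436049-39436109 (−) for RPS16 on hg38.
Rpl36: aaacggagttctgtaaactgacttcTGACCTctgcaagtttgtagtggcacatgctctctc
Rpl18: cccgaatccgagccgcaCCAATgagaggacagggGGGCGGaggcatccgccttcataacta
Rpl15: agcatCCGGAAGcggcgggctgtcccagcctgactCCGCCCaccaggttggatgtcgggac
RPS16: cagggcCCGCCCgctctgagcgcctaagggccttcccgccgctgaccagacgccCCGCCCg
AGGTCA, a nuclear receptor hexamer, was found at 3 of 28 liver peaks, Rpl13a, Rpl36 and Rps10 (10.7%, against 9.98% of all liver promoter peaks), and at 0 of 77 in MEFs and 0 of 63 distinct peaks in Hep3B, against 3.92% and 3.31%. CCGGAAG, the core of ETS sites, was found at 10 of 77 member peaks in MEFs (13.0%, against 6.46%), 7 of 63 in Hep3B (11.1%, against 8.56%) and 1 of 28 in liver (3.57%, against 3.86%). GGGCGG, read by SP and KLF factors, was found at 15 of 63 in Hep3B (23.8%, against 47.0%), 25 of 77 in MEFs (32.5%, against 39.7%) and 5 of 28 in liver (17.9%, against 20.9%). The widest gap between the members and all promoter peaks was that of GGGCGG in Hep3B, and it was not tested. CCAAT, the NF-Y site, was found at 2 members in liver (7.14%, against 13.1%), 12 in MEFs (15.6%, against 19.3%) and 12 in Hep3B (19.0%, against 19.4%). The 101 bp around the summits held a median of 55.0% GC in liver, 60.4% in MEFs and 61.4% in Hep3B, against 55.4%, 65.3% and 68.3% at all promoter peaks. A match is a description and not a binding site.

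A 12 base consensus of PROX1 was searched on both strands of each peak and of 20 bp on either side, and as many as 2 mismatches were allowed. It was found at 2 of 28 member peaks in liver (7.14%, against 16.6% of all promoter peaks), 14 of 77 in MEFs (18.2%, against 20.9%) and 7 of 63 in Hep3B (11.1%, against 14.5%). The member peaks were narrower than all promoter peaks, with median widths of 441.5 against 536 bp in liver, 966 against 982 in MEFs and 650 against 717 in Hep3B, so fewer bases were searched at them. The closest match, with 1 mismatch, was at Rps26, 10 bp from the liver summit and 72 bp from the MEF summit, at chr10:128626938-128626949 (+) on mm10. It is shown with 8 bases on each side, beside matches with 2 mismatches at Rpl10a, chr17:28328138-28328149 (+), 223 bp from the liver summit, and at RPL37A, chr2:216498705-216498716 (+) on hg38, 45 bp from the summit. The 12 matched bases are in capitals.
Rps26: aaccacctTAAGACGCCATGatttattt
Rpl10a: tctagtcaCAAGGCGCTTTCccgttctg
RPL37A: tggatgagAGAGACGCCTTAcaattgca

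In RefSeq promoter sequences of 250 bases before to 50 after the start, which matched 64 of the 83 mouse members, CCGGAAG was found at 25 (39.1%), against 9.93% of 27025 genes, and GGGCGG at 39 (60.9%), against 38.2%. TGCGCA was found at 13 (20.3%, against 8.79%) and CCAAT at 19 (29.7%, against 41.1%). Among the 22 matched members with a liver promoter peak, CCGGAAG was found at 8 (36.4%) and GGGCGG at 16 (72.7%), and among the 42 without at 17 (40.5%) and 23 (54.8%). Neither difference was tested.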

How the data were processed

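CUT&RUN was performed on 22 samples in 6 groups, assigned from the sample labels. Per the methods, the authors trimmed reads with Trim Galore 0.6.6, aligned them with Bowtie 2 2.4.2 to mm10 or hg38 and ran Genrich 0.6.1 once per antibody group to obtain consensus peaks, at a minimum mapping quality of 30, with PCR duplicates removed. The command names no IgG control, while the paper describes its sites as high-confidence in comparison with IgG. How IgG entered the lists is not known. The 3 deposited lists held 50159 (liver), 40531 (MEFs) and 14369 (Hep3B) peaks. The deposited score was capped at 1000 for 99.9%, 24.2% and 24.7% of peaks so it did not serve as a rank. The deposited signal, computed by the authors' caller, is the area under the significance curve and starts at 500 in liver and 200 in the cultures. The deposited −log10 p and −log10 q belong to the summit, and the summit offset gives its position. None was normalized between lists.

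Here, peaks were ranked by −log10 p within each list, and the strongest promoter peak of a gene was taken. Starts came from GENCODE M21 and 44 on assembled chromosomes. Peaks overlapped when they shared at least 1 bp. Sequences were read from GRCm38 and hg38 with pysam 0.24.0, and RefSeq promoters were matched by symbol. The PROX1 consensus was written from general knowledge and is not the matrix used by the study. Gene pairing was tested on simulated peaks. Named genes were the 5 strongest members per list, the 5 with the highest lowest percentile, members without a peak and members of known role. The members and lists were chosen with earlier results of these data known. Intervals of shares are Wilson intervals, and those of medians are exact binomial intervals from the ranked values. Python 3.11.15, pandas 2.3.3 and NumPy 2.4.6 were used. Alternatives were other windows, starts, q limits, area floors, ranks and equal list sizes. Values of a few single genes and sequences are not reported here.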

Additional observations from a re-analysis of the deposited data

How the results depend on the processing

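Of 85 values recomputed under alternative settings, 76 stayed within set limits and 9 moved past them. The limits were 1.5 times the main count, or the 95% interval of the main median or share. A change in the order of the lists was not scored. Some of the 76 could not move. The Hep3B list already has the size used for equal lists. The liver list starts at an area of 500 and a −log10 q of 4.03, so the area floor and q limits removed nothing there. With the same number of strongest peaks from each list (14369), the members with a promoter peak fell from 28 to 5 in liver (against 4.99% of all genes), from 77 to 49 in MEFs (against 34.0%) and from 24 to 4 in all 3 lists (against 2.13% of symbols). In Hep3B the count stayed at 64 of 89 (against 44.4%), a higher share than the 49 of 83 in MEFs. With an area of at least 500 required in every list, the count fell from 64 to 32 in Hep3B (against 27.2%) and from 24 to 12 in all lists (against 14.0%). It fell from 77 to 64 in MEFs (against 45.2%) and stayed at 28 in liver (against 26.7%), whose list starts at this area. Ranking among promoter peaks in place of all peaks moved the MEF median percentile from 76.0 to 59.3, took the liver median from 21.2 to 36.7, within its wide interval, and moved the share in the strongest 25% from 53.2% to 22.1% in MEFs and from 34.4% to 23.4% in Hep3B, and ranking by area moved the latter to 21.9%. The counts under windows of 500 and 2000 bp, q below 0.01 and 0.05 and outermost starts stayed within 1.5 times the main counts. The requirement that no other gene start be nearer was chosen after seeing the data, and its values are counted among the 85. No paired analysis was possible because each list pools its samples, and leaving out replicates was not possible for the same reason. Depth per sample is unknown, so a member without a peak was not detected in its list and may still be bound.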
